A study of Mus musculus with 16 samples.

Results

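Scar-associated macrophage genes are a set of 8 genes, Spp1, Lgals3, Trem2, Gpnmb, Cd63, Cd9, Pla2g7 and Syngr1, that are used to mark the macrophages found in scarred liver and lung. They were followed here by gene name in RNA sequencing of cells washed from the airways of mice. All 8 were found among the 54532 genes of the count table, each with 1 entry, and all 8 passed the filter on low counts that left 15257 genes to be tested. The mice, C57BL/6 in the design text and spelled C56BL/6J in the labels, were 8 to 10 weeks old. They had been given bleomycin at 4 U per kg of body weight or saline by the oropharyngeal route, and lavage cells were taken after 14 days, to compare the response of the sexes. The 4 groups were bleomycin males, bleomycin females, saline males and saline females, with 4 libraries each. Libraries are named below by the code in their labels and held 16385784 to 24567609 counts each. Levels are given as CPM, counts scaled to library size. No genotype other than the strain is given, and the labels do not say whether each library came from 1 animal. A p-value therefore weighs a difference against the spread between these libraries, which may not be the spread between animals. Unless a smaller fit is named, that spread was estimated over all 4 groups.

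Bleomycin breaks DNA, and its instillation is a common way of modelling lung fibrosis in rodents. In the injured lung, monocytes enter the airspace and become macrophages beside the alveolar macrophages that live there. Macrophages that handle large amounts of lipid and cell debris take on a shared programme in fibrotic lung, cirrhotic liver, fat tissue and brain. Osteopontin, the product of Spp1, is a secreted adhesive protein of that programme, and TREM2 is its lipid-sensing receptor. The other products are secreted proteins or proteins of lysosomes, vesicles and the cell surface.

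Of the 8 genes, 6 rose with bleomycin in each sex: Spp1, Trem2, Gpnmb, Cd63, Pla2g7 and Syngr1. Their log2 fold changes ran from 2.12 for Gpnmb to 6.15 for Syngr1 in males and from 2.24 for Gpnmb to 6.96 for Syngr1 in females. Lgals3 and Cd9, which were already abundant in saline libraries, were called in neither sex. Over all genes tested, 31.5% were called higher and 24.9% lower in males, 56.5% in all, and 26.7% were called higher and 17.2% lower in females, 43.9% in all. Calls were made with edgeR's quasi-likelihood test where the p-value, adjusted by Benjamini-Hochberg over the genes tested, was below 0.05, and this test is meant wherever no other is named. The median log2 fold change of the 8 genes was 3.20 in males and 3.11 in females, against 0.02 over all genes in each sex. These values were known when the genes were chosen, and they are a description of this list. In bulk RNA, more cells that express a gene and more RNA of it per cell cannot be told apart.

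**Figure D1:**
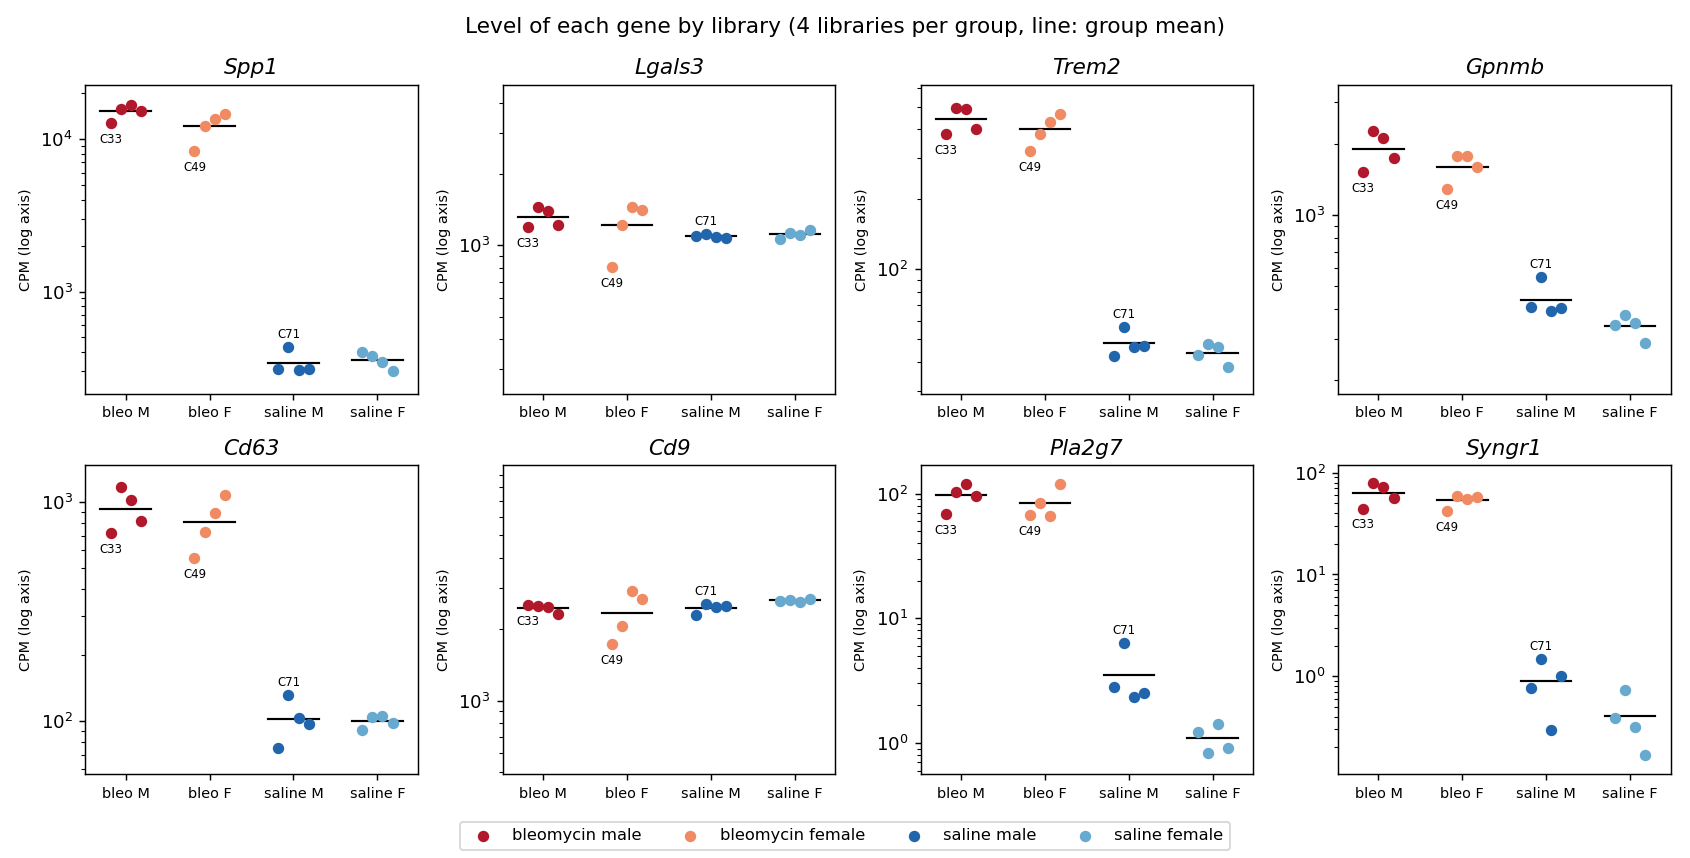
Normalised counts (CPM, log axis) of each of the 8 genes in every library, with bleomycin males, bleomycin females, saline males and saline females from left to right, 1 point per library and a line at the group mean. In 6 panels every bleomycin point lies above every saline point, while in the Lgals3 and Cd9 panels the bleomycin and saline points overlap, and C33, C49 and C71 are labelled. The share of all tested genes that separate in this way was not counted. Of those genes, 63.6% were called between bleomycin and saline when the change was averaged over the sexes.

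The sequences before the Spp1 and Gpnmb start sites are shown because both genes rose with bleomycin and both hold letters of motifs bound by macrophage transcription factors. They come from RefSeq on GRCm38.p6, which has an entry for all 8 genes, and they cover the 250 bases before the first listed start of Spp1, at chr5:104434861-104435110, and before the start of Gpnmb, at chr6:49036268-49036517, both on the plus strand. Capitals mark TATAAA and GAGGAAGT in Spp1 and AAACCACA in Gpnmb.
Spp1: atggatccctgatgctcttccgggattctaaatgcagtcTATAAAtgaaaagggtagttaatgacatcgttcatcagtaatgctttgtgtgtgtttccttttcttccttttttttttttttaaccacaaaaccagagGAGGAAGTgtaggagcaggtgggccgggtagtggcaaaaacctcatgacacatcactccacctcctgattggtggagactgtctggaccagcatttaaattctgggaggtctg
Gpnmb: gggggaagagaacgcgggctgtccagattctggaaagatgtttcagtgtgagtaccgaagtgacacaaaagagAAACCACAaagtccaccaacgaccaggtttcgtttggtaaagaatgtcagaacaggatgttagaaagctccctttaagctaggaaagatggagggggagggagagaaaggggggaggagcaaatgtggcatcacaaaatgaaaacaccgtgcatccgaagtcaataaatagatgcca
The motifs searched on both strands were TGACTCA of AP-1, CACGTG and its variant CATGTG of E-box factors such as MITF and TFE3, GAGGAAGT of PU.1, TGTGGTTT of RUNX, and TATAAA, none of which overlapped another match in the 8 genes. They were chosen after the sequences had been read. GAGGAAGT began 113 bases before the Spp1 start and is held by 3.20% of the 32851 RefSeq promoter windows, which run from 250 bases before to 50 bases after a start. TATAAA began 211 bases before that start and is held by 13.6% of windows. AAACCACA, which is TGTGGTTT read on the other strand, began 177 bases before the Gpnmb start and is held by 1.78%. TGACTCA, held by 5.2%, lay 8 bases after the Gpnmb start. These distances are from the RefSeq starts, 104435111 for Spp1 and 49036518 for Gpnmb. Both lie before the gene starts given below, 104435118 and 49036546, and TGACTCA lies before the latter. No GENCODE M21 transcript holds all 50 bases after either RefSeq start. In the Cd9 window the complement of CATGTG began 38 bases before the start, and 14.2% of windows hold that motif on either strand. No motif of the 6 was found in the windows of Lgals3, Trem2, Cd63, Pla2g7 and Syngr1 or in the window of a second Spp1 start. A match is a run of letters, not a measured binding site.

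Spp1 (ENSMUSG00000029304, chromosome 5, 104435118 to 104441050, plus strand, GRCm38) encodes osteopontin, which binds integrins and CD44 on other cells. It had 12755, 15668, 16746 and 15247 CPM in bleomycin males C33, C65, C66 and C67, against 310.4, 432, 306 and 311 CPM in saline males C70 to C73. In bleomycin females C49, C50, C68 and C69 it had 8315, 12112.5, 13571 and 14484 CPM, against 402, 380.1, 344 and 301 CPM in saline females C74 to C77. The lowest bleomycin library, C49, was 19.2 times the highest saline library, C71, and the groups did not overlap in either sex. The log2 fold change was 5.47 ± 0.19 (SE) in males, or 44.4-fold, with an adjusted p of 2.29e-13. In females it was 5.09 ± 0.19, or 34.0-fold, with an adjusted p of 4.61e-13.

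Per kilobase of gene length Spp1 was the most abundant of the 8 genes after bleomycin, at 9063 ± 1002 FPKM in males and 7226 ± 1575 FPKM in females (SD, n = 4 each). Among the 22046 protein-coding genes it ranked between place 3 and place 5 by FPKM in the bleomycin libraries, and between place 115 and place 197 in the saline libraries. Its counts were 1.39% ± 0.126 of all counts in bleomycin males and 1.13% ± 0.185 in bleomycin females. In saline males and females they were 0.0365% ± 0.00623 and 0.0383% ± 0.00442. Spp1 thus held most of the counts of the 8 genes after bleomycin, 67.6% ± 1.78 in males and 64.8% ± 1.34 in females, and 7.52% ± 0.922 and 7.74% ± 0.941 under saline. The 8 genes together held 2.05% ± 0.169 of all counts in bleomycin males and 1.73% ± 0.261 in bleomycin females. Under saline their share was 0.484% ± 0.0247 in males and 0.494% ± 0.0105 in females. Without Spp1 the remaining 7 genes held 0.662% ± 0.0564 and 0.607% ± 0.0810 after bleomycin, against 0.448% ± 0.0193 and 0.456% ± 0.0116 under saline, males before females.

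**Figure D2:**
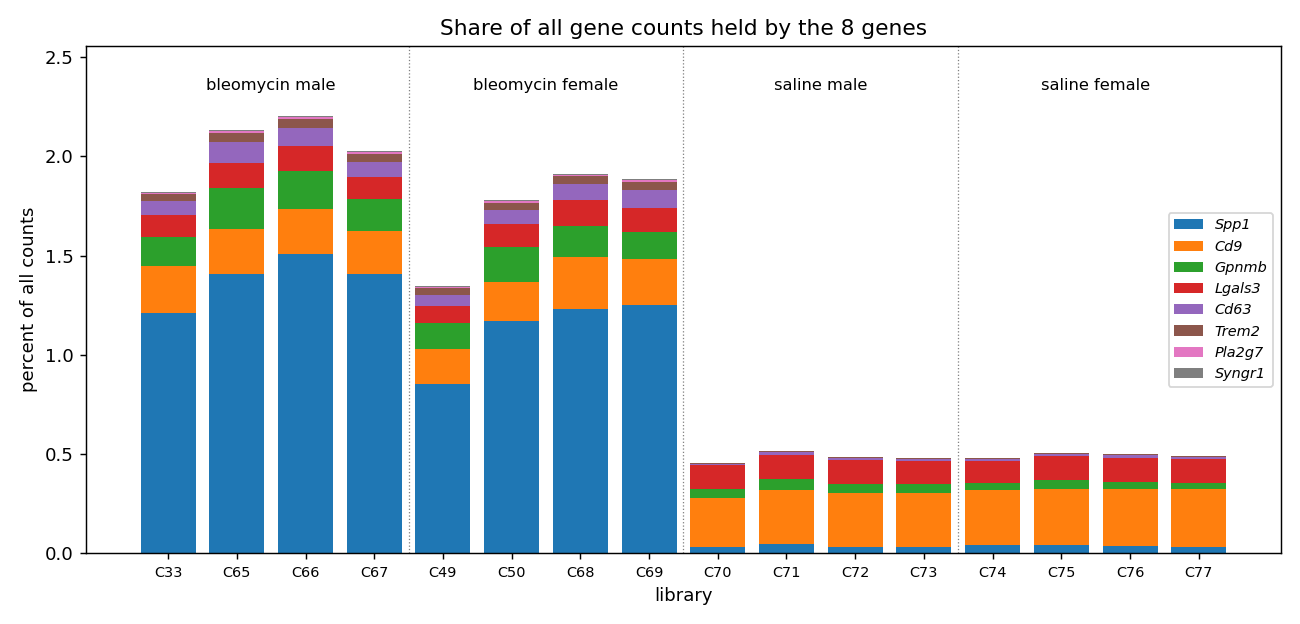
Percent of all gene counts held by the 8 genes in each library, stacked by gene, with bleomycin males, bleomycin females, saline males and saline females from left to right. The total lies between 1.35% in C49 and 2.21% in C66 among the bleomycin libraries and between 0.456% and 0.516% among the saline libraries, and the Spp1 block makes most of the difference.

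Osteopontin acts through CD44 and several integrins, and 10 of these receptor genes were listed. Of the 9 that could be tested, 7 rose and 1 fell when the bleomycin change was averaged over the sexes. Calls for related genes below are those in this average, and a gene called in it need not be called in each sex. Over all genes tested 34.7% rose and 28.8% fell in that average, 63.6% in all, and their median log2 fold change was 0.01. The list's median was 0.69. Of the 9 tested, 2 lay below the level of the low-count filter in every saline library, so they were tested only through the bleomycin groups. Itgb5, a partner chain of the alpha v integrin, changed by 1.14 ± 0.05 on the log2 scale, and Itgav, the alpha v chain itself, by 0.69 ± 0.06. Itgb3, a second partner chain, changed by 6.05 ± 0.39 from very low saline levels, and the receptor Cd44 fell by 0.69 ± 0.08. Cd44 had 1080 ± 153 and 1133 ± 174 CPM in bleomycin males and females, against 1773 ± 69.8 and 1803 ± 111 CPM in saline males and females.

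Lgals3 (ENSMUSG00000050335, chromosome 14, 47367751 to 47386160, plus strand) encodes galectin 3, a sugar-binding protein that is secreted and also gathers on damaged lysosomes. Its level was 1198, 1452, 1399 and 1217 CPM in bleomycin males C33, C65, C66 and C67, against 1096, 1120.5, 1082 and 1076 CPM in saline males. In bleomycin females C49, C50, C68 and C69 it was 810.1, 1221, 1448 and 1414 CPM, against 1066, 1129.8, 1105 and 1157 CPM in saline females. By these CPM all bleomycin males lay above all saline males, while in females C49 lay below every saline library and the other 3 above every one. With libraries scaled by their totals alone, bleomycin and saline libraries overlapped in both sexes. The ratio of means was then 1.02 in males and 0.949 in females, against 1.2 and 1.1. The log2 fold change was 0.27 ± 0.13 in males (adjusted p = 0.0915) and 0.13 ± 0.13 in females (adjusted p = 0.433). Without C49 the values were 0.27 and 0.29, with adjusted p-values of 0.00695 and 0.00826, so Lgals3 was called where that library was left out. In males it was also called with all libraries kept when only the male groups were fitted, at 0.26 (adjusted p = 0.0152). In the authors' deposited table for males, Lgals3 is listed at 0.26 with an adjusted p of 0.00261. In their table for both sexes it is listed at 0.19 with an adjusted p of 0.0762, and it is not listed in their table for females.

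Of 12 further galectins and galectin partners 9 were tested, of which 5 rose and 3 fell in the average of the sexes, with a median of 0.56. Lgals3bp, a secreted glycoprotein bound by galectin 3, rose by 1.73 ± 0.07 on the log2 scale. Lgals9 rose by 1.37 ± 0.07, and Lamp1 and Lamp2, lysosomal membrane proteins, rose by 0.86 ± 0.06 and 0.56 ± 0.06. Lgals4, a galectin known from gut epithelium, fell by 1.92 ± 0.24, Lgalsl fell by 0.89 ± 0.17 and the phagocytic receptor Mertk fell by 0.23 ± 0.07, though in females it was not called, at -0.04. Lgals4 had 1.86 ± 0.493 and 2.95 ± 2.08 CPM in bleomycin males and females, against 9.62 ± 1.27 and 8.30 ± 1.98 CPM in saline males and females.

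Trem2 (ENSMUSG00000023992, chromosome 17, 48346401 to 48354147, plus strand) encodes a receptor for lipids and lipoproteins that signals through the adaptor TYROBP. It had 383, 496, 489 and 400.1 CPM in bleomycin males C33, C65, C66 and C67, against 42.4, 56.6, 46.3 and 47.0 CPM in saline males. It had 322, 382, 431 and 466 CPM in bleomycin females C49, C50, C68 and C69, against 42.7, 47.6, 46.5 and 38.2 CPM in saline females. The bleomycin and saline libraries stood well apart, and the change was nearly the same size in the sexes. Trem2 rose by 3.20 ± 0.13 on the log2 scale in males (9.19-fold, adjusted p = 1.85e-12) and by 3.19 ± 0.13 in females (9.14-fold, adjusted p = 1.82e-12).

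Among 5 other genes of the TREM family, 2 rose and 3 fell in the average of the sexes, and the list's median was -0.55. Treml2 rose by 5.97 ± 0.25 on the log2 scale and Treml1 by 3.19 ± 0.48. Treml1 lay below the level of the low-count filter in every saline library, so it was tested only through the bleomycin groups. Trem1, an activating receptor of neutrophils and monocytes, fell by 0.77 ± 0.12, Trem3 fell by 0.78 ± 0.22 and Treml4 fell by 0.55 ± 0.11. Of 14 genes of TREM2 signalling and its ligands 9 rose and 3 fell, with a median of 0.49. The rises were led by Apoe and Clu, apolipoproteins that TREM2 binds, at 6.12 ± 0.17 and 5.50 ± 0.21, and by Ms4a6d and Ms4a4a at 1.22 ± 0.08 and 5.98 ± 0.39. Ms4a4a also lay below the filter's level in every saline library. Apoe reached 6030.1 ± 1759 and 4477 ± 1142 CPM in bleomycin males and females, against 88.8 ± 9.68 and 62.7 ± 7.60 CPM in saline males and females. The adaptor gene Tyrobp had 813 ± 76.3 and 795 ± 152 CPM in bleomycin males and females, against 569.8 ± 32.9 and 587 ± 53.6 CPM in saline males and females. Of the cytoplasmic signalling genes Vav2 fell by 0.38 ± 0.08, Syk by 0.24 ± 0.06 and Plcg2 by 0.14 ± 0.06. These 3 falls were called in males and not in females, where Vav2 was at -0.21, Syk at -0.05 and Plcg2 at -0.07. Trem3 was not called in males (-0.67) and Treml4 not in females (-0.37). None of the listed genes was called in the test of the difference between the sexes.

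Gpnmb (ENSMUSG00000029816, chromosome 6, 49036546 to 49070929, plus strand) encodes a transmembrane glycoprotein of lysosomes and the cell surface. It had 1517, 2268, 2113 and 1749 CPM in bleomycin males C33, C65, C66 and C67, against 409, 550.4, 393 and 406.5 CPM in saline males. It had 1286, 1774, 1776 and 1594 CPM in bleomycin females C49, C50, C68 and C69, against 342, 379, 351 and 288 CPM in saline females. No bleomycin library overlapped a saline library, and C71 stood above the other saline males. Gpnmb had the smallest change of the 6 genes that rose, at 2.12 ± 0.15 on the log2 scale in males (4.35-fold, adjusted p = 1.40e-09) and 2.24 ± 0.15 in females (4.72-fold, adjusted p = 7.82e-10).

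Gpnmb is a known target of the MiT/TFE factors, which switch on lysosomal genes. Of 9 genes of these factors and their regulators 5 rose and 3 fell in the average of the sexes, with a median of 0.14. Rragd, a small GTPase and target of the factors, rose by 4.43 ± 0.19 on the log2 scale, Fnip2 by 1.31 ± 0.06, Rragc by 0.77 ± 0.05 and the factor gene Tfe3 by 0.43 ± 0.06. The other factor genes fell, Mitf by 0.20 ± 0.08, Tfeb by 0.24 ± 0.05 and Tfec by 0.46 ± 0.13. Mitf was not called in males, at 0.02, against -0.42 in females, and Tfec was not called in females, at -0.31. Among 6 relatives and partners of GPNMB, 3 rose and 1, Cd44, fell. Sdc4, a syndecan that GPNMB binds, rose by 5.23 ± 0.19, and the closest relative Pmel rose by 0.85 ± 0.21, though in males it was not called, at 0.48.

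Cd63 (ENSMUSG00000025351, chromosome 10, 128900989 to 128912822, plus strand) encodes a tetraspanin of late endosomes, lysosomes and exosomes. It had 718, 1161, 1017 and 814 CPM in bleomycin males C33, C65, C66 and C67, against 75.03, 131, 103 and 96.4 CPM in saline males. It had 552.5, 728, 885 and 1069.7 CPM in bleomycin females C49, C50, C68 and C69, against 91.0, 104, 105.5 and 98.0 CPM in saline females. The groups did not overlap, and bleomycin females were spread over the widest range, with C49 lowest. The log2 fold change was 3.20 ± 0.20 in males (9.16-fold, adjusted p = 4.60e-10) and 3.02 ± 0.20 in females (8.11-fold, adjusted p = 8.68e-10). A pseudogene copy, Cd63-ps, also had counts, 948 to 1520 per bleomycin library and 133 to 218 per saline library. It held 6.08% to 7.72% of the counts of both genes together after bleomycin and 7.35% to 9.80% under saline, and reads of so similar a copy can be assigned to either.

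Cd9 (ENSMUSG00000030342, chromosome 6, 125460266 to 125494791, minus strand) encodes a second tetraspanin, found at the cell surface with integrins. It had 2542, 2508, 2484 and 2312 CPM in bleomycin males C33, C65, C66 and C67, against 2302, 2568, 2486 and 2522 CPM in saline males. It had 1734, 2071, 2905 and 2679 CPM in bleomycin females C49, C50, C68 and C69, against 2629, 2657.5, 2612.5 and 2698.5 CPM in saline females. In males the groups overlapped almost wholly, and in females C49 and C50 lay below all saline libraries while C68 lay above all of them. The log2 fold change was 0.00 ± 0.12 in males (95% interval -0.26 to 0.25, adjusted p = 0.977) and -0.17 ± 0.12 in females (-0.43 to 0.08, adjusted p = 0.258). With libraries scaled by their totals alone Cd9 was called lower, at -0.23 in males and -0.38 in females, while the median of all genes then lay at -0.21 and -0.17. Without C68 it was also called lower in females, at -0.29 (adjusted p = 0.0489). A pseudogene, Cd9-ps, had at most 1 count in a library.

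Of 19 other tetraspanins 17 were tested, of which 15 rose and 1 fell in the average of the sexes, with a median of 0.49. Tspan3 rose by 3.28 ± 0.14 on the log2 scale, Tspan13 by 3.08 ± 0.15, Tspan4 by 2.68 ± 0.14 and Tspan2 by 2.94 ± 0.16, while Cd151, a partner of laminin-binding integrins, fell by 0.32 ± 0.06. With library totals alone 11 rose and 2 fell. Of the 17 tested, 2 lay below the filter's level in every saline library, so they were tested only through the bleomycin groups. Of 6 tetraspanin partners 5 rose and none fell. Itga3 and Itga6, integrin chains bound by tetraspanins, rose by 3.89 ± 0.20 and 0.82 ± 0.07, Timp1, a secreted inhibitor that binds CD63, by 2.48 ± 0.25 and Icam1 by 0.51 ± 0.08. With library totals alone 4 of the partners rose and 1 fell.

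Pla2g7 (ENSMUSG00000023913, chromosome 17, 43568098 to 43612201, plus strand) encodes a secreted phospholipase that hydrolyses platelet-activating factor and oxidised phospholipids. It had 68.98, 102.5, 119 and 95.2 CPM in bleomycin males C33, C65, C66 and C67, against 2.79, 6.30, 2.35 and 2.52 CPM in saline males. It had 67.35, 83.7, 66.4 and 118 CPM in bleomycin females C49, C50, C68 and C69, against 1.22, 0.827, 1.42 and 0.909 CPM in saline females. Bleomycin males and females covered nearly the same range, whereas every saline male lay above every saline female. The log2 fold change was 4.81 ± 0.28 in males (28-fold, adjusted p = 1.46e-10) and 6.26 ± 0.32 in females (76.8-fold, adjusted p = 3.02e-11). The saline values rest on 48 to 110 counts per male library and on 16 to 27 counts per female library.

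Of 12 genes of other platelet-activating factor enzymes, phospholipases A2 and their relatives 5 rose and 4 fell in the average of the sexes, with a median of -0.02. Lpcat1 and Lpcat2, acyltransferases that can form platelet-activating factor, rose by 3.31 ± 0.11 and 3.43 ± 0.12 on the log2 scale. Its receptor gene Ptafr rose by 2.80 ± 0.18 and Pla2g16 by 1.55 ± 0.08. Pla2g15, the lysosomal phospholipase, fell by 0.47 ± 0.09, Pla2g6 by 0.40 ± 0.09, Lpcat3 by 0.27 ± 0.07 and Pafah1b3 by 0.44 ± 0.13. Pla2g6 and Lpcat3 were not called in females, at -0.28 and -0.23, and Pafah1b3 was not called in males, at -0.28. With library totals alone 5 rose and 7 fell.

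Syngr1 (ENSMUSG00000022415, chromosome 15, 80091334 to 80119501, plus strand) encodes synaptogyrin 1, a vesicle membrane protein known from neurons. It had 44.35, 78.9, 72.03 and 56.6 CPM in bleomycin males C33, C65, C66 and C67, against 0.776, 1.49, 0.294 and 1.02 CPM in saline males. It had 41.75, 59.0, 55.4 and 57.9 CPM in bleomycin females C49, C50, C68 and C69, against 0.389, 0.740, 0.315 and 0.170 CPM in saline females. The gene was near its detection limit under saline, with 6 to 26 counts per male library and 3 to 17 per female library. It was the only one of the 8 that missed the filter's level of 0.510 CPM in some libraries, being above it in all 8 bleomycin and in 4 saline libraries. Its log2 fold change was 6.15 ± 0.30 in males (adjusted p = 1.14e-11) and 6.96 ± 0.33 in females (adjusted p = 8.59e-12). Of 7 other synaptogyrins and synaptophysins 4 were tested, and Syngr2, the form found outside neurons, rose by 0.55 ± 0.07 in the average of the sexes. Syp fell by 2.61 ± 0.14 and Sypl by 0.26 ± 0.06, and Syngr4 was not called at 0.31 ± 0.39.

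**Figure D3:**
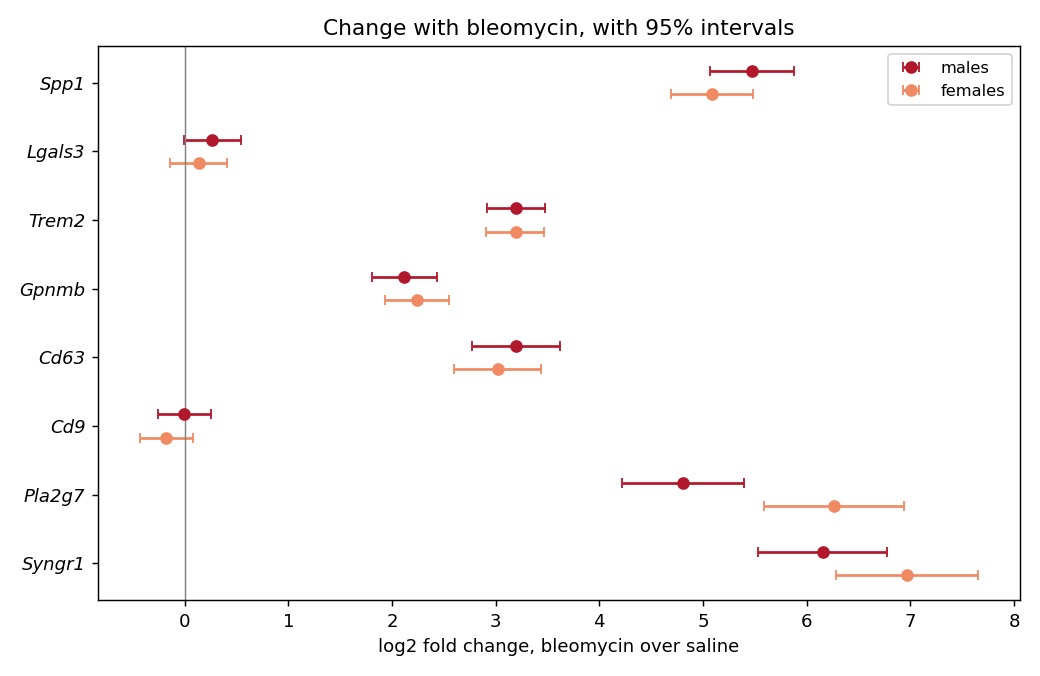
Log2 fold change of bleomycin over saline for each of the 8 genes in males and in females, with 95% intervals from edgeR's quasi-likelihood fit. The values of 6 genes lie between 2.12 and 6.96 with intervals clear of 0, and the intervals of Lgals3 and Cd9 include 0 in both sexes.

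Ordered by FPKM, the 8 genes ran Spp1, Cd9, Lgals3, Gpnmb, Cd63, Trem2, Pla2g7 and Syngr1 in the bleomycin libraries of both sexes. Each gene lay above the next in every pairing of libraries within a group, except Gpnmb and Cd63, which overlapped. Under saline the order was Cd9, Lgals3, Spp1, Gpnmb, Cd63, Trem2, Pla2g7 and Syngr1 in both sexes, with no overlap between neighbours. Cd9 had 1191 ± 44.6 and 1128 ± 250 FPKM in bleomycin males and females, against 1204 ± 53.2 and 1289 ± 18.8 FPKM in saline males and females. Syngr1, the lowest, had 12.95 ± 3.14 and 10.95 ± 1.63 FPKM in bleomycin males and females, against 0.185 ± 0.103 and 0.0834 ± 0.0499 FPKM in saline males and females. Spp1 was the gene whose place changed, passing Cd9 and Lgals3, which kept their order.

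The spread between libraries differed among the genes. In bleomycin males the SD of log2 CPM ran from 0.06 for Cd9 to 0.37 for Syngr1, and in bleomycin females from 0.22 for Gpnmb to 0.41 for Cd63. The median over all tested genes was 0.21 in bleomycin males and 0.26 in bleomycin females. Under saline Lgals3 and Cd9 varied less than most genes, with SDs of 0.03 and 0.07 in males and 0.05 and 0.02 in females, against medians of 0.15 and 0.14 over all genes. C33 was the lowest bleomycin male for 7 of the 8 genes and C49 the lowest bleomycin female for 7. Among saline males C71 was the highest for all 8. The share of all tested genes with the same extreme library was not counted. Whether these counts are particular to the 8 genes was therefore not tested.

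Several cell marker lists moved with bleomycin and between libraries. The counts of markers are calls in the average of the sexes, where 34.7% of all genes rose and 28.8% fell. Of the tested markers, 7 of T cells, 5 of B cells, 3 of fibroblasts and endothelium, 2 of monocyte-derived macrophages, 2 of neutrophils and 1 of lung epithelium lay below the filter's level in every saline library, so they were tested only through the bleomycin groups. Summed over 12 markers of monocyte-derived macrophages, the level was 6040 to 11200 CPM in bleomycin males and 4480 to 8150 in bleomycin females, against 173 to 239 in saline males and 179 to 190 in saline females, and 12 of 12 rose. Among 14 genes that mark alveolar macrophages resident in the lung, 11 fell and 1 rose, and in females alone 8 fell and 0 rose, with sums of 12700 to 20800 and 12500 to 25700 CPM in bleomycin males and females, against 19600 to 21600 and 25300 to 28600 in saline males and females. The 12 T cell markers all rose, with sums of 281 to 725 and 246 to 600 CPM in bleomycin males and females, against 4.81 to 9.62 and 2.90 to 4.70 in saline males and females. All 6 tested B cell markers rose, with sums of 92.6 to 351 and 53.7 to 269 CPM after bleomycin and at most 1.28 under saline, and all 8 dendritic cell markers and 5 of 6 tested neutrophil markers rose as well. Neutrophil sums were 184 to 229 and 190 to 206 CPM in bleomycin males and females, against 81.6 to 100 and 85.9 to 125 in saline males and females. Dendritic cell sums were 367 to 716 and 318 to 526 CPM in bleomycin males and females, against 27.97 to 58.8 and 25.3 to 31.5 in saline males and females. Of 10 lung epithelial markers 8 rose and 1 fell, with sums of 195 to 256 and 175 to 263 CPM in bleomycin males and females, against 196 to 227 and 223 to 258 in saline males and females. Of 5 tested fibroblast and endothelial markers 4 rose, with sums of 165 to 256 and 161 to 242 CPM in bleomycin males and females, against 163 to 185 and 138 to 159.9 in saline males and females. All 5 tested red cell markers rose in the average and in males, while none was called in females, with sums of 67.3 to 6020 and 176 to 1040 CPM in bleomycin males and females, against 7.24 to 167 and 7.53 to 441 in saline males and females. Cd79b and Pax5 were at 0 in saline males, Ly6g in bleomycin females and in both saline groups, and Col1a1 in both saline groups. C49 had the lowest sum of monocyte-derived markers and the highest of T cell and B cell markers among bleomycin females, and C33 the lowest of all 3 among bleomycin males. C71 had the highest sum of every marker list among saline males except those of neutrophils and lung epithelium, where it had the lowest. Fabp4, a lipid-binding protein gene, was the resident marker that rose in the average and in males, and Csf3r of the neutrophil markers and Epcam of the epithelial markers fell. Some sums rest largely on 1 gene. In bleomycin males and females Apoe averaged 6030.1 and 4477 CPM of the monocyte-derived sum. Chil3 averaged 12269.5 and 13678.8 CPM of the resident sum, and Vwf 171.7 and 188.7 CPM of the fibroblast and endothelial sum. Epcam averaged 119.4 and 119.7 CPM of the epithelial sum in saline males and females. Sums and their order between libraries can therefore follow 1 gene rather than a cell type. The part of these cells in the changes of the 8 genes was not tested.

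Macrophage genes as such were abundant in every library. The sum over 8 general macrophage markers was 53200 to 60200 and 41200 to 60100 CPM in bleomycin males and females, against 20800 to 25400 and 20000 to 21000 in saline males and females, most of it Lyz2. Adgre1, the F4/80 antigen, was not called and had 355 ± 20.9 and 362 ± 51.5 CPM in bleomycin males and females, against 360.5 ± 25.7 and 409.5 ± 28.6 CPM in saline males and females.

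Of 27 further genes known from lipid-associated macrophages, 23 rose and 1 fell in the average of the sexes, and their median log2 fold change was 1.81. Mmp14, a membrane-bound matrix protease, rose by 6.84 ± 0.15 on the log2 scale, Timp2 by 2.46 ± 0.08, the growth factor gene Igf1 by 3.55 ± 0.12 and the macrophage growth factor gene Csf1 by 4.24 ± 0.15. Itgax, the CD11c integrin chain that alveolar macrophages also carry, fell by 0.17 ± 0.06, though in females it was not called, at -0.07. With library totals alone 21 of the 27 rose and 4 fell. Mmp14 had 213 ± 26.3 and 204 ± 37.8 CPM in bleomycin males and females, against 2.06 ± 0.584 and 1.60 ± 0.545 CPM in saline males and females. Of the 27, 1 lay below the filter's level in every saline library. The lists of related genes were written with earlier results of these data known, and list members with few saline counts passed the filter through the bleomycin groups.

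**Figure D4:**
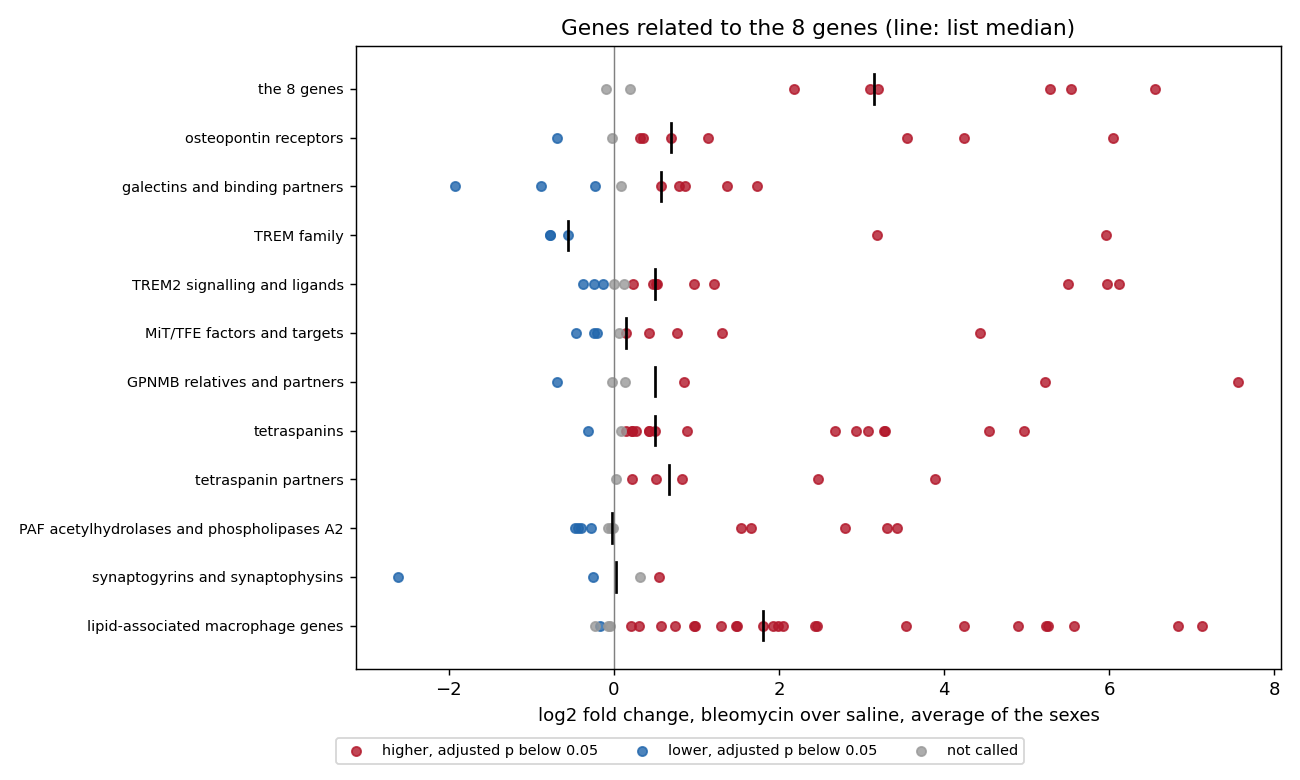
Log2 fold change of bleomycin over saline, averaged over the sexes, for the 8 genes and for the tested members of 11 lists of related genes, 1 point per gene, coloured by whether it was called higher, called lower or not called, with a line at the median of each list. The line lies at 3.15 for the 8 genes, at 1.81 for lipid-associated macrophage genes and between -0.55 and 0.69 for the other lists.

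For each of the 8 genes, the protein-coding genes whose centred log2 CPM was closest over the 16 libraries were found among 8569 genes with a mean of at least 10 CPM. The measure is the root mean square difference on the log2 scale, and it mostly reflects an equal change between bleomycin and saline. Mfge8, which encodes a protein that bridges dying cells to phagocytes, was closest to Spp1 at 0.144, followed by Anpep at 0.270. Mreg and Ephx1 were closest to Gpnmb at 0.159 and 0.163. Tspan3 was the closest gene to both Trem2 and Cd63, at 0.202 and 0.205, followed by Lpcat2 for Trem2 at 0.209 and Ninj1 for Cd63 at 0.255. Trem2 and Cd63 were closer still to each other, at 0.150. Pla2g7 and Syngr1 lay farther from their closest genes, with Stab1 and Rai14 at 0.420 and 0.426 from Pla2g7 and Blnk and Slfn5 at 0.447 and 0.518 from Syngr1. Their saline values rest on 16 to 110 and 3 to 26 counts per library, and counting noise in them adds to the distance from any gene. Rbmxl1 and S100a10 were closest to Cd9 at 0.0750 and 0.0800, and Psma1 and Arf1, both at 0.0870, to Lgals3.

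Between bleomycin males and bleomycin females none of the 8 genes was called, where 0.059% of all genes were, 0.0328% higher and 0.0262% lower in males. All 8 estimates lay on the male side, from 0.07 for Cd9 to 0.32 for Spp1 on the log2 scale, and all 8 adjusted p-values were 0.995. The median over all genes was -0.01. Without C49, the lowest bleomycin female for 7 of the 8 genes, Cd9 and Lgals3 were both at -0.05. The Spp1 difference had a 95% interval of -0.02 to 0.65 and an unadjusted p of 0.0607 by edgeR's quasi-likelihood method, and that of Gpnmb had an interval of -0.05 to 0.55. For Trem2 it was 0.14 (-0.11 to 0.40), for Cd63 0.20 (-0.19 to 0.59), for Lgals3 0.11 (-0.17 to 0.38), for Pla2g7 0.20 (-0.26 to 0.67) and for Syngr1 0.23 (-0.19 to 0.66). The libraries of the sexes overlapped for every gene. Without C33, C49 and C50, the bleomycin libraries whose codes lie outside the run from C65 to C77, again none was called, and Cd9 and Lgals3 changed sign, to -0.17 and -0.05. None of the 8 genes is listed in the authors' deposited table of this comparison, which holds 389 genes with an unadjusted p up to 0.04984.

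Between saline males and saline females none of the 8 was called either, where 0.269% of all genes were, 0.144% higher and 0.125% lower in males. Pla2g7 was the nearest, at 3.49 ± 1.88 CPM in males and 1.09 ± 0.276 CPM in females (SD, n = 4 each). Its log2 fold change was 1.66 ± 0.38 (SE, 95% interval 0.87 to 2.45) with an adjusted p of 0.0859. It was called with DESeq2 (1.68, adjusted p = 0.00137), with no low-count filter (1.64, adjusted p = 3.28e-05) and in a fit of the saline libraries alone (1.65, adjusted p = 0.0129), and over all alternatives its adjusted p ran up to 0.482. Without C71, the saline male with the highest level, it was 1.23 with an adjusted p of 0.193. The authors' deposited table lists Pla2g7 at 1.65 with an adjusted p of 0.000185.

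Gpnmb was also higher in all 4 saline males than in all 4 saline females, at 439.8 ± 74.1 CPM and 340.2 ± 38.1 CPM, with a log2 fold change of 0.37 ± 0.14 and an adjusted p of 0.416. Without C71 it was 0.24 with an adjusted p of 0.682. The authors' deposited table lists Gpnmb at 0.35 with an adjusted p of 0.0113. Cd9 lay lower in every saline male than in every saline female, at 2469.5 ± 116.5 CPM and 2649 ± 37.7 CPM, and its log2 fold change was -0.10 ± 0.12 (adjusted p = 0.793). Syngr1 had an estimate of 1.04 ± 0.48 with overlapping libraries and an adjusted p of 0.515. The estimates for Spp1, Trem2, Cd63 and Lgals3 lay between -0.07 and 0.14, and their libraries overlapped.

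**Figure D5:**
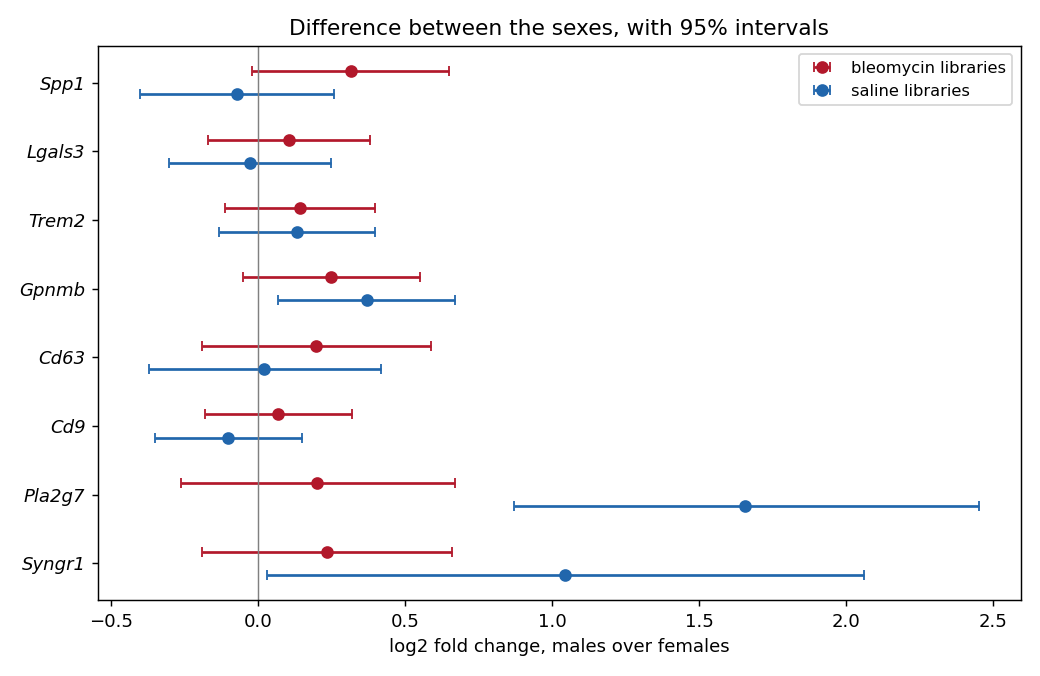
Log2 fold change of males over females for each of the 8 genes, in the bleomycin libraries and in the saline libraries, with 95% intervals from edgeR's quasi-likelihood fit. The saline value of Pla2g7 lies farthest from 0, at 1.66, and the 8 bleomycin values lie between 0.07 and 0.32.

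The bleomycin change itself was compared between the sexes as an interaction, for which 0.00655% of all genes were called and none of the 8. Pla2g7 changed less in males than in females, by -1.46 ± 0.44 on the log2 scale (95% interval -2.38 to -0.53), where edgeR's quasi-likelihood test gave an unadjusted p of 0.0039 and an adjusted p of 0.548. This difference was called with no low-count filter, at -1.42 (adjusted p = 0.0347), and without C71 it was -1.03 (adjusted p = 0.589). The bleomycin levels of Pla2g7 overlapped between the sexes, and the saline levels, with 16 to 110 counts behind each value, did not. Syngr1 had an interaction of -0.81 ± 0.52 (-1.91 to 0.29) and Spp1 one of 0.39 ± 0.22 (-0.08 to 0.86). The other 5 genes had interactions between -0.12 and 0.18, and for Trem2 the value was 0.01 with an interval of -0.36 to 0.37.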

How the data were processed

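Gene counts were analysed for 16 libraries of lavage cells. The tools listed in the submitters' processing notes are DESeq2, featureCounts 1.5.0-p3, HISAT2 2.0.5 and fastp 0.12.2, and the builds mm9 and mm10 are named with no role. All 8 genes have the coordinates of GENCODE M21 (GRCm38). The deposited counts are raw whole numbers per gene. The deposited FPKM values are counts over gene length times 1 factor in each library, and were used to order genes. The log2 fold changes and p-values quoted as the authors' are from their deposited tables, which list genes with an unadjusted p up to 0.04998.

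Totals were 18871879 to 24567609 counts in bleomycin and 16385784 to 21393539 in saline libraries. Genes were kept by filterByExpr (minimum count 10, by group) and fitted in edgeR 4.0.16 (R 4.3.3) with TMM factors and 1 coefficient per group over all 16 libraries. CPM are counts over the library's total in the tested genes times its TMM factor. The saline libraries serve in more than 1 comparison. Standard errors were derived from the F statistic. The labels name no batch. Replicates were compared by chi-square per gene, and no pair agreed within sampling noise. Alternatives used DESeq2 1.42.0 and limma 3.58.1 on voom values and on log2(FPKM + 1) and log2(FPKM + 0.1).

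The 8 genes, the 21 other lists and the tests were chosen with earlier results of these data known. Named from each list of related genes are at most 4 genes with the smallest p in the average of the sexes and all that moved against its majority. A gene that the rule names is not reported here. Tyrobp, Adgre1 and Lyz2 are named outside this rule and were chosen after their values were seen.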

Additional observations from a re-analysis of the deposited data

Results flagged for a closer look

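There were 3 genes that had a saline male far from the other 3 of its group. C71 had 432 CPM of Spp1, against 306 to 311 in the others, 550.4 CPM of Gpnmb, against 393 to 409, and 6.30 CPM of Pla2g7, against 2.35 to 2.79. The gap to the next library was 0.957, 0.895 and 0.889 of the group's range, above Dixon's critical value of 0.829 for 4 samples. Chance alone flags about 1 in 20 groups, and 8 genes in 4 groups were looked at, with the same library behind all of these cases. C71 also had the highest sums of the saline males for T cell and dendritic cell markers, at 9.62 and 58.8 CPM. The same held for B cell, red cell, fibroblast and endothelial markers, and for general, resident and monocyte-derived macrophage markers. Its neutrophil and lung epithelial sums were the lowest.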

How the results depend on the processing

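The rise of Spp1, Trem2, Gpnmb, Cd63, Pla2g7 and Syngr1 kept its direction and its call under every alternative run, including each left-out library, in both sexes and in their average. With libraries scaled by totals alone the median of all genes lay at -0.21, -0.17 and -0.20 in males, females and the average, against 0.02, 0.02 and 0.01, and Cd9 was called lower (-0.23, -0.38 and -0.31, so 1 gene of the 8 lower in each), Lgals3 turned to -0.08 in females and -0.02 in the average, the interaction of Trem2 turned to -0.02, and the genes called lower numbered 6130, 4826 and 7001, and 0 for the interaction. Of 32 group means of CPM, 6 moved by more than 1 SD under that scaling.

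No paired analysis was possible because the groups share no replicate codes. Between saline males and females, DESeq2 called 100 genes higher and 91 lower, the fit with no low-count filter 59 and 60, the fit of the groups compared 375 and 376, and the fit without C33, C49 and C50 (chosen after seeing the data) 130 and 161, against 22 and 19; in each of them 1 of the 8, Pla2g7, was called. For the interaction DESeq2 called 10 higher and 13 lower, no filter 6 and 9 (1 of the 8, Pla2g7, lower), the fit without those 3 libraries 58 and 19, and limma on voom values and on both FPKM scales 0 lower. Between bleomycin males and females no filter called 9 genes higher, the fit of the groups compared 2 lower, and the fit without C33, C49 and C50 459 and 226, against 5 and 4; in the last, 4103 genes were lower in bleomycin females. That fit also gave Lgals3 calls at 0.28, 0.29 and 0.29, and turned Cd9 in females to 0.01, Cd9 and Lgals3 between bleomycin sexes to -0.17 and -0.05, and the interactions of Trem2, Cd9 and Lgals3 to -0.05, -0.06 and -0.01. Cd63 between saline sexes was 0.00 with voom, and the Syngr1 interaction 0.08 on log2(FPKM + 1). The cause of these changes was not tested.

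With 1 library left out at a time, the genes called higher between saline sexes numbered 13 to 37 and lower 7 to 38, and lower for the interaction 0 to 1; of the 8 genes 0 to 1 was called higher between saline sexes (Pla2g7 without C69) and 0 to 1 lower in females (Cd9 without C68). Signs changed within -0.04 to 0.02 for Cd9 in males, -0.05 to 0.19 for Cd9 and -0.05 to 0.20 for Lgals3 between bleomycin sexes, -0.12 to 0.14 for Cd63 between saline sexes, and -0.08 to 0.10, -0.02 to 0.22 and -0.21 to 0.01 for the interactions of Trem2, Lgals3 and Gpnmb. Saline levels of Syngr1 and Pla2g7 are limited by counts of 3 to 26 and 16 to 110.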
